A study of Rattus norvegicus with 72 samples.

Results

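Adipose tissue of lactating rats kept in hypergravity was compared with adipose tissue of lactating rats kept at standard gravity, over all 31042 probe sets of a series of 72 Affymetrix rat arrays. The arrays were chosen by their labels: 5 were labelled lactating adipose tissue in hypergravity and 5 lactating adipose tissue at standard gravity. One of the former, A210H, was left out, so that 9 arrays were compared. These were A203H, A206H, A212H and A217H in hypergravity and A201S, A202S, A214S, A216S and A219S at standard gravity. Each title carries a rat code that recurs in the liver and mammary gland arrays. By these codes, the same rats also gave 9 lactating mammary gland arrays, 4 in hypergravity and 5 at standard gravity, after M210H was left out. The 10 lactating liver arrays, 5 per condition, were of these rats and of the rat of A210H. Adipose tissue of pregnant rats, 5 arrays per condition, was used for comparison. Per the labels, RNA was extracted with a lipid tissue kit from adipose tissue and with TRIzol from the other tissues. The strain, age, day of lactation, fat depot, litter and gravity load of the rats are not given in the sources used here, and no treatment other than the gravity condition is named.

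White adipose tissue stores fatty acids as triglyceride and either makes them from glucose or takes them up from lipoproteins. In the lactating rat, fatty acid synthesis in fat is known to be low while the mammary gland makes milk fat, so that substrate is spared for milk. Glucose enters adipocytes through the insulin-responsive transporter encoded by Slc2a4, and is turned to citrate in mitochondria. Citrate leaves through the citrate carrier (Slc25a1), ATP citrate lyase (Acly) cleaves it to acetyl-CoA in the cytosol, and acetyl-CoA carboxylase (Acaca) and fatty acid synthase (Fasn) build palmitate with NADPH from malic enzyme (Me1) and the pentose phosphate pathway.

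Promoters are shown for 2 genes of this pathway, Me1, whose gravity response differed between adipose tissue and liver, and Acly, which supplies acetyl-CoA to the pathway. Both are 300-base windows around the annotated gene start from RefSeq on build GRCr8, read 5′ to 3′ on the minus strand, at chr8:96540195-96540494 for Me1 and chr10:85963582-85963881 for Acly. Capitals mark a CCAAT match.
Me1: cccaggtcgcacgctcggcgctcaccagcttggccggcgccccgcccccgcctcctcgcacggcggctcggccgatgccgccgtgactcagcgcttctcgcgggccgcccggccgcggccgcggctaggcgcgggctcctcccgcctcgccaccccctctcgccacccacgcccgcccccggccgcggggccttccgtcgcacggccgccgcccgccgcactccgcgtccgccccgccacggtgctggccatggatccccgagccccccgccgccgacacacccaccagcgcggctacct
Acly: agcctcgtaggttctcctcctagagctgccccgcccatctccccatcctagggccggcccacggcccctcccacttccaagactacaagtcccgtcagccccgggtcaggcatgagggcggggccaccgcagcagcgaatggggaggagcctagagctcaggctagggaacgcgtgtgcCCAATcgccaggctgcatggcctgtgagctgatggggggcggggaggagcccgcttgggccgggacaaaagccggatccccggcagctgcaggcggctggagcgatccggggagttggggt
The windows were searched on both strands for CACGTG, the E-box that ChREBP and USF factors are known to bind, for CACCCCAC, the core of a sterol regulatory element, and for CCAAT, the NF-Y box. These letters occurred in 6.42%, 2.7% and 37.5% of 33469 rat promoter windows of this length. Acly held 1 CCAAT match and neither other motif, and Me1 held none of the 3. The Me1 window was 81.7% G and C.

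The 9 arrays carried the RNA of adipose tissue. The mean log2 level of 20 adipocyte markers ran from 10.08 to 10.70 in hypergravity and from 10.11 to 10.66 at standard gravity, against 6.53 to 6.82 in the lactating livers and 7.18 to 8.05 in the mammary glands. Adiponectin (Adipoq) lay between 12.22 and 12.67 on all 9 arrays. Milk protein genes (7 measured) had means of 3.00 to 4.10 and hepatocyte genes (14 measured) of 3.78 to 4.25, both below the array medians of 4.44 to 4.56. A210H went against its label. Its milk protein mean was 12.39 and its adipocyte mean 7.51, whereas M210H, labelled mammary gland of the same rat, had a milk protein mean of 3.20 and an adipocyte mean of 10.42.

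The arrays were not alike in other cell types. Skeletal muscle markers, such as sarcomere genes, averaged 9.96 on A217H over 29 genes and 3.90 to 4.22 on the other 8 arrays. A217H also had the lowest adipocyte mean in hypergravity, 10.08, against 10.63 to 10.70 on the other 3. Without A217H the median difference of the 29 muscle genes went from 1.54 to -0.002. Smooth muscle and pericyte markers averaged 8.39 on A206H, against 4.78 to 6.24 on the other 8 arrays, and the median difference of the 10 genes was 1.14. Mesothelial markers (7 measured) ran from 8.12 to 8.73 in hypergravity, with a median of 8.30, and from 8.14 to 9.05 at standard gravity, with a median of 9.01, and 6 of the 7 genes were below 0. Erythrocyte genes (3 measured) were 6.92 to 7.0 in hypergravity without A217H (7.71) and 7.37 to 8.61 at standard gravity. Ucp1, the uncoupling protein of brown and beige fat, was 7.61 on A201S, 8.73 on A202S and 6.01 on A212H, and 3.51 to 5.14 on the other 6. In bulk tissue, fewer cells of a type and less RNA per cell cannot be told apart.

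**Figure D1:**
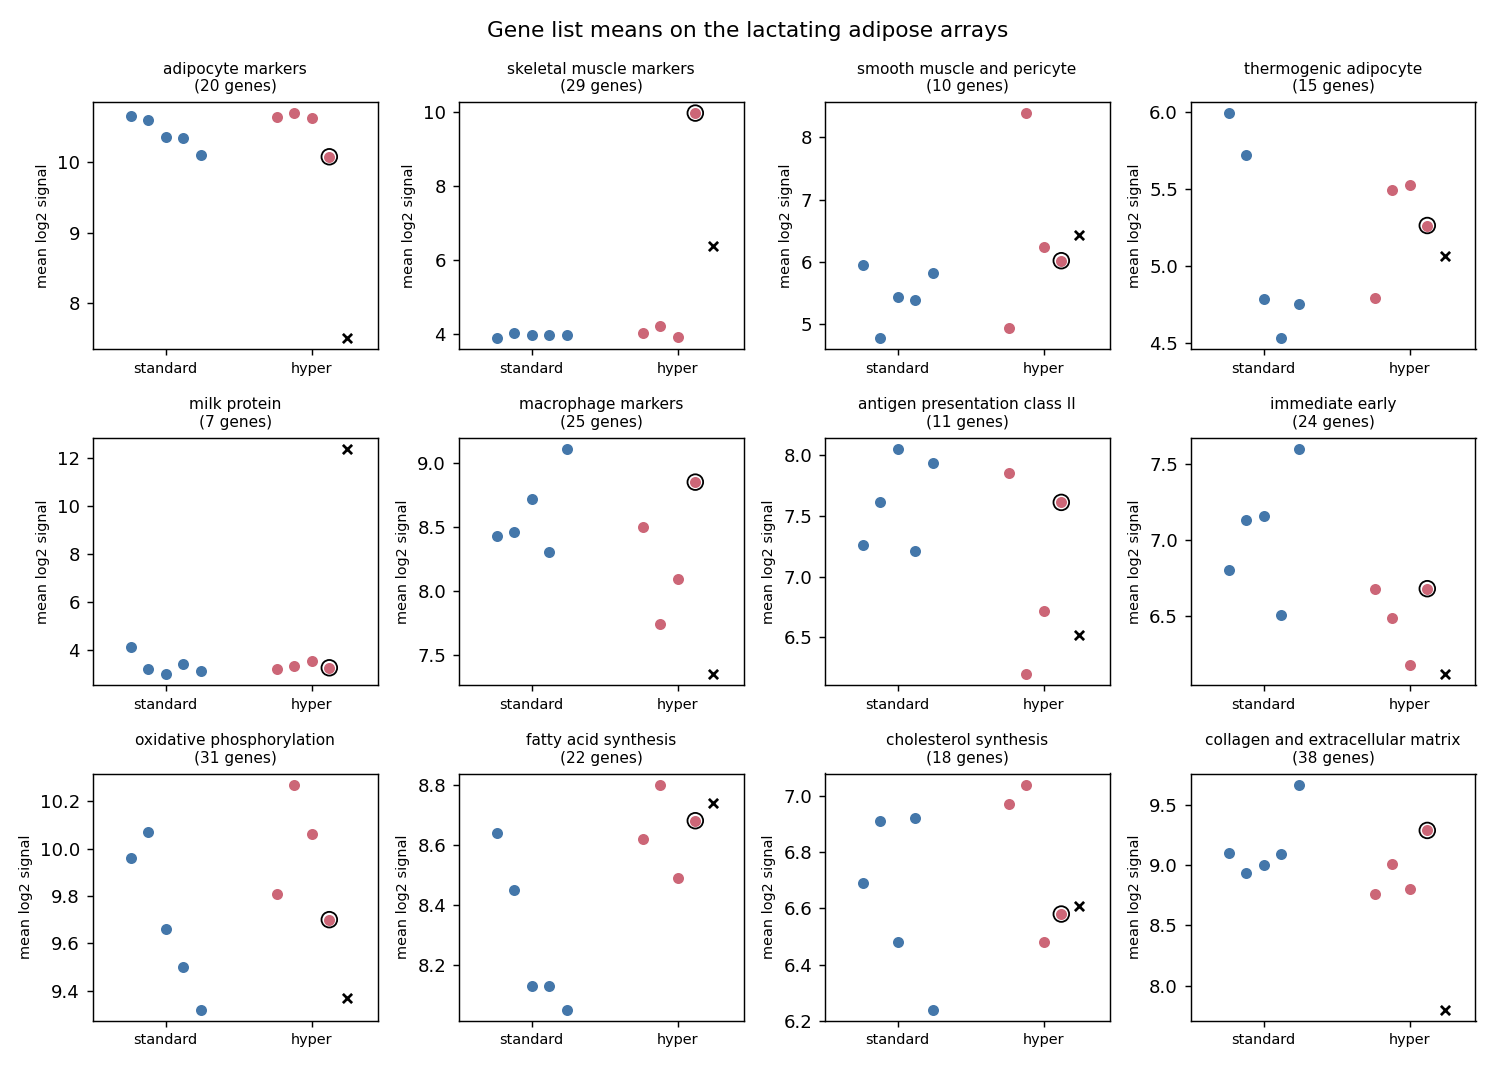
Mean log2 signal of 12 gene lists on each lactating adipose array, at standard gravity (blue) and in hypergravity (red), with A217H ringed and A210H, which was left out, as a cross. A217H stands apart in skeletal muscle markers at 9.96, and A210H in milk protein at 12.39 and adipocyte markers at 7.51.

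No gene passed the test for a gravity effect in lactating adipose tissue. At a Benjamini-Hochberg adjusted p under 0.05, limma called 0 of 31042 probe sets (0%), the smallest adjusted p was 1, and 709 (2.28%) had an unadjusted p under 0.05. The same fit in pregnant adipose tissue called 0 (0%), with 1283 at an unadjusted p under 0.05. In lactating liver, limma called 126 probe sets, 29 higher (0.0934%) and 97 lower (0.312%) in hypergravity. The livers included L210H, whose rat gave no array to the adipose comparison, and without L210H there were 244 calls. In mammary gland of the same rats as the adipose arrays, limma called 2928 probe sets, 1394 higher (4.49%) and 1534 lower (4.94%). The median standard error of a log2 difference was 0.21 in lactating adipose tissue, 0.17 in liver and 0.21 in mammary gland. All adipose values that follow are therefore descriptions with their standard errors, and in this fit of the adipose arrays no single gene difference is a call. A fit of 28 lactating arrays of 3 tissues, used below for differences between tissues, was added here after seeing the data. Its spread was estimated over all 3 tissues, and in it limma called 6 probe sets for the adipose effect. Of these, Slc2a4 and Sgca, a gene of the muscle membrane, were higher, Bnc1, known from mesothelium, was lower, and 3 had no gene symbol. With 4 arrays against 5, the 2 groups did not overlap for 171 probe sets in the higher direction (0.551%) and 193 in the lower (0.622%). The median log2 difference over 14217 genes was 0.0045, and 50.9% of genes were above 0.

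**Figure D2:**
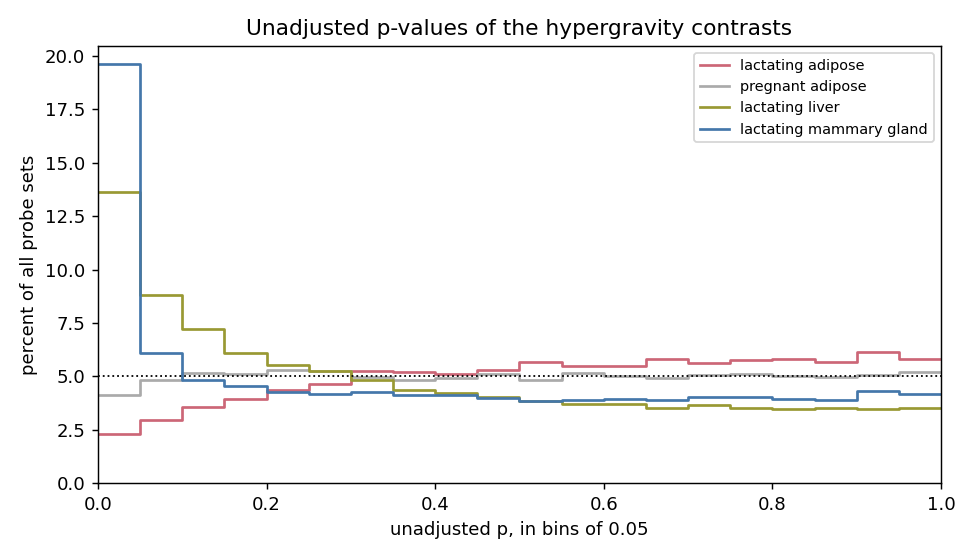
Percent of 31042 probe sets in each bin of the unadjusted p-value for the hypergravity effect in lactating adipose tissue, pregnant adipose tissue, lactating liver and lactating mammary gland. The dotted line at 5 marks an even spread; lactating adipose tissue starts below it, at 2.28, whereas liver and mammary gland start above it at 13.7 and 19.6.

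Of the 24 named genes, the 12 per direction of smallest p whose groups did not overlap, only Slc2a4, Slc2a1 and Fasn belonged to glucose uptake and fatty acid synthesis. Slc2a4, whose product is the transporter that insulin moves to the adipocyte surface, had log2 levels of 8.84, 9.59, 9.28 and 9.15 in hypergravity and of 8.09, 7.73, 6.54, 7.13 and 7.51 at standard gravity. All 4 hypergravity arrays lay above all 5 standard gravity arrays, with A214S the lowest. The means were 9.22 ± 0.31 (SD, n = 4) and 7.40 ± 0.59 (SD, n = 5), a log2 difference of 1.82 (SE 0.49, 95% interval 0.78 to 2.86), or 3.53-fold, with an unadjusted p of 0.0018 and an adjusted p of 1. In the fit of 28 arrays, whose spread is pooled over 3 tissues, limma gave the same difference an SE of 0.31 and an adjusted p of 0.019. That SE does not measure the spread of the adipose arrays alone. The difference was 1.84 without A217H and 1.60 to 1.99 with any 1 of the 9 arrays left out. The brightest probe set of Slc2a4 was used, and its second probe set gave a log2 difference of 1.01 with overlapping groups. Slc2a4 lies at chr10:55164721-55170289 on build GRCr8.

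Slc2a1, which encodes the basal glucose transporter, was 9.04, 9.74, 9.01 and 8.88 in hypergravity and 8.23, 8.38, 8.34, 8.56 and 8.23 at standard gravity. The groups did not overlap, and A206H was the highest array. The log2 difference was 0.82 (SE 0.27, unadjusted p 0.0075). Of the 33 measured genes of glucose uptake and insulin signalling, 21 were above 0 and 12 below, with a median of 0.16 (0.26 without A217H) beside 0.0045 over all genes. Irs1, a docking protein of the insulin receptor, had a log2 difference of 0.59 (SE 0.28) with overlapping groups, and Irs2 of -0.18 (SE 0.35).

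Fasn was 11.32, 11.81, 11.79 and 11.53 in hypergravity and 11.21, 10.71, 9.39, 9.70 and 9.54 at standard gravity. The 4 hypergravity arrays were close to each other and above all others, while the standard gravity arrays were split, with A201S and A202S near the hypergravity level. The log2 difference was 1.50 (SE 0.50, 95% interval 0.46 to 2.55), or 2.83-fold, with an unadjusted p of 0.0075. It was 1.53 without A217H and 1.32 to 1.78 with any 1 array left out. The second Fasn probe set gave 2.23. Fasn lies at chr10:106570415-106588581 on GRCr8.

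Acaca, which makes malonyl-CoA for fatty acid synthase, was 8.99, 10.37, 10.64 and 10 in hypergravity and 9.64, 8.89, 8.06, 7.75 and 7.86 at standard gravity. The groups overlapped, since A203H lay below A201S. The log2 difference was 1.56 (SE 0.55, 95% interval 0.41 to 2.71, unadjusted p 0.011), and a second, dim probe set gave 0.23. Me1 was 10.38, 11.11, 10.24 and 10.81 against 10.32, 10.15, 9.47, 9.58 and 9.20, a log2 difference of 0.89 (SE 0.41, unadjusted p 0.043). In Me1, A212H lay below A201S, and A201S and A202S were again the highest standard gravity arrays.

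The other enzymes of the pathway ranged more widely. Transketolase (Tkt), an enzyme of the pentose phosphate pathway, did not overlap between groups, at 9.99 to 10.40 in hypergravity and 8.78 to 9.77 at standard gravity, with a log2 difference of 0.88 (SE 0.49). The mitochondrial citrate carrier Slc25a1 differed by 0.86 (SE 0.56) and Acly by 0.31 (SE 0.30), at 11.68 to 12.32 against 11.42 to 11.98. Elongase Elovl6 differed by 0.55 (SE 0.87) and spread from 6.45 to 9.64 in hypergravity and from 5.19 to 8.77 at standard gravity. The desaturase Scd, which makes oleate, had a log2 difference of -0.44 (SE 0.34), at 12.74, 11.59, 10.88 and 12.24 in hypergravity against 11.75 to 12.76.

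Over the fatty acid synthesis list as a whole, 22 of 24 genes were measured, 16 were above 0 and 6 below, and the median log2 difference was 0.35. Of the 22, 3 had an unadjusted p under 0.05, beside 2.28% of all probe sets. Fasn and Tkt, 2 of the 22, did not overlap between groups and were higher, beside 0.551% of all probe sets. The list mean ran from 8.49 to 8.80 in hypergravity and from 8.05 to 8.64 at standard gravity, where A201S (8.64) and A202S (8.45) were above the other 3 (8.05 to 8.13). The median was 0.15 without A219S, 0.22 without A217H and 0.23 without A206H, and up to 0.43 with another array left out. A201S and A202S, the standard gravity arrays highest in these genes, were also the 2 arrays highest in Ucp1, at 7.61 and 8.73, and the part of Ucp1-bearing fat in the result was not tested.

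**Figure D3:**
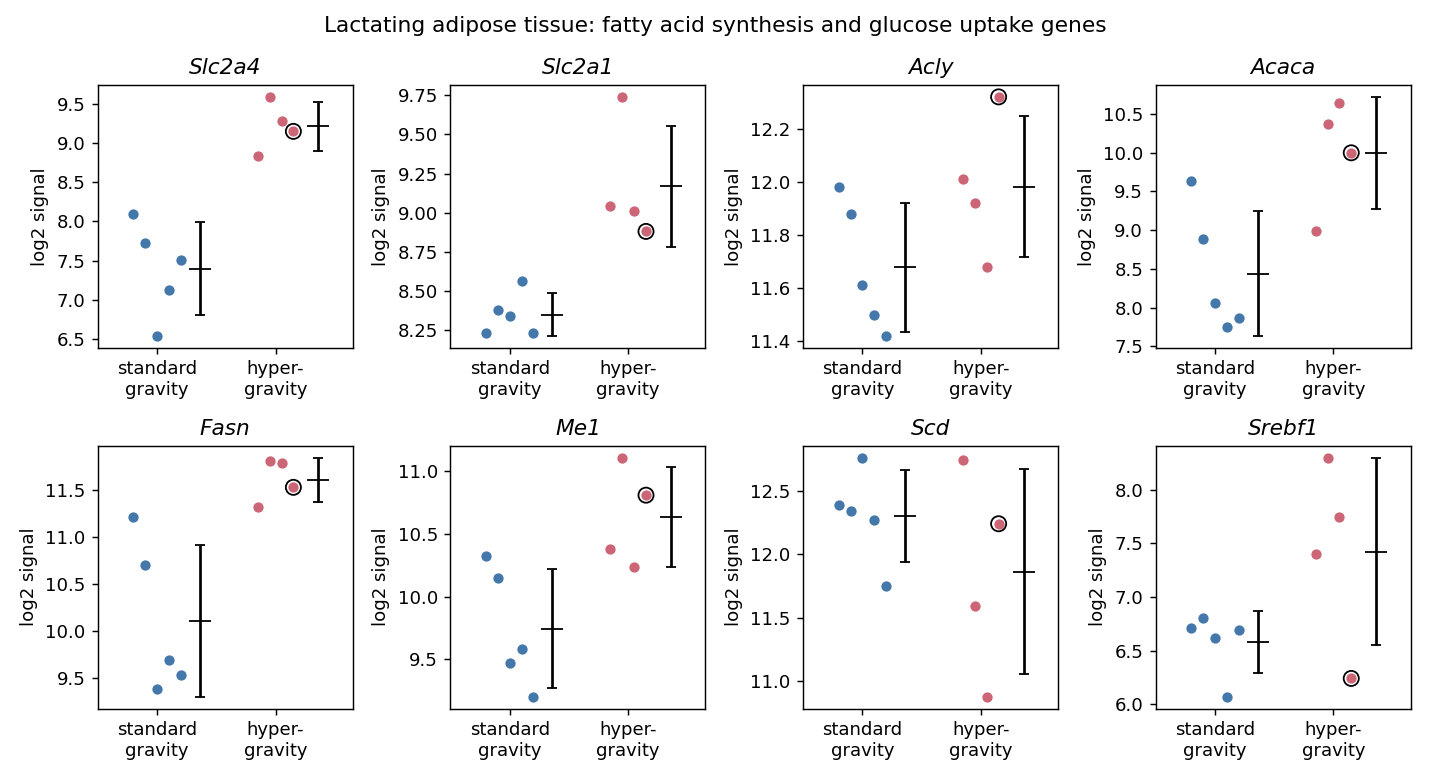
Log2 signal of 8 genes of glucose uptake and fatty acid synthesis on the 9 lactating adipose arrays, at standard gravity (blue) and in hypergravity (red), each with its mean and SD beside it and A217H ringed. The groups do not overlap for Slc2a4, Slc2a1 and Fasn, and overlap for Acly, Acaca, Me1, Scd and Srebf1.

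Among the regulators of lipid synthesis, Srebf1, which encodes the transcription factor SREBP that drives lipogenic genes, was 7.40, 8.30, 7.75 and 6.24 in hypergravity and 6.71, 6.80, 6.62, 6.07 and 6.69 at standard gravity. Its log2 difference was 0.84 (SE 0.48), and 1.24 without A217H, whose value of 6.24 was the lowest in hypergravity. Mlxipl, which encodes the glucose-sensing factor ChREBP, was dim, at 4.61 to 5.36 against 3.75 to 4.82. Mid1ip1, a partner that activates acetyl-CoA carboxylase, did not overlap, at 9.60 to 10.17 against 9.01 to 9.53, with a log2 difference of 0.52 (SE 0.20, unadjusted p 0.02). Of the 19 measured regulators, 11 were above 0 and 8 below, with a median of 0.07. Without A217H the median was 0.22, with 5 of the 19 at an unadjusted p under 0.05, in place of 2. Over all 31042 probe sets, 709 were under 0.05 with A217H, and 508 to 876 with any 1 array left out. Thrsp, which encodes a nuclear protein of lipogenic tissues, differed by 0.25 (SE 0.37), Insig1 by -0.08 (SE 0.15), Pparg by 0.03 (SE 0.48) and Lpin1 by -0.40 (SE 0.47).

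Genes of cholesterol synthesis showed no shift of a size these arrays could call. Of 23 listed genes 18 were measured, 11 above 0 and 7 below, none with an unadjusted p under 0.05, and the median was 0.18. It was 0.02 without A219S and 0.03 without either A203H or A206H, and 0.27 without A212H. Squalene epoxidase (Sqle) differed by 0.21 (SE 0.40), and Dhcr7 by 0.56 (SE 0.58), the highest of the list.

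Storage and release of fat showed no shift of a size these arrays could call. Triglyceride assembly had 15 measured genes with a median of 0.10 (0.23 without A217H), lipolysis and lipid droplet 24 with a median of 0.02, and fatty acid uptake 16 with a median of 0.04 (0.07 without A217H). Lipoprotein lipase (Lpl), which frees fatty acids from circulating lipoproteins, was 12.32 to 12.54 in hypergravity and 12.37 to 12.60 at standard gravity, with a log2 difference of -0.06 (95% interval -0.27 to 0.16). The lipases Pnpla2 and Lipe differed by -0.19 (SE 0.42) and -0.02 (SE 0.48), and by 0.14 and 0.23 without A217H, in which both were the lowest of the hypergravity arrays. Without A217H the lipolysis median was 0.19, with 20 of 24 genes above 0 in place of 13. Bscl2, which encodes the lipid droplet protein seipin, differed by 0.64 (SE 0.30, unadjusted p 0.049). Adipoq differed by -0.04 (SE 0.13), leptin (Lep), at 3.08 to 4.03 on all 9 arrays and so below the array medians, by -0.14 (SE 0.26), and Pck1, the enzyme of glycerol synthesis in fat, by -0.09 (SE 0.32).

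The remaining genes of smallest p were of mixed function. Of the 12 in the higher direction, Slc2a4, Slc2a1 and Fasn are described above. Zpbp2, known as a zona pellucida binding protein of sperm, was 4.68 to 5.71 in hypergravity and 4.01 to 4.44 at standard gravity, with a log2 difference of 0.93 (SE 0.21) and the smallest unadjusted p in this direction, 0.00027. Spp1, which encodes osteopontin, differed by 0.91 (SE 0.24), but lay at 2.91 to 3.28 at standard gravity and at 3.34, 4.29, 3.62 and 4.79 in hypergravity, and so at or below the array medians on all arrays but A217H. The other 7 were Arl16, Lzts3, C10h17orf100, Lrrc4b, Zc3h6, Trip11 and Ablim3, with log2 differences of 0.36 to 1.08. Second probe sets of Arl16 (0.24), Ablim3 (0.48) and Zpbp2 (0.81) overlapped between groups.

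In the lower direction Mest, an imprinted gene linked to adipocyte size, was 9.61, 9.47, 8.54 and 8.07 in hypergravity and 10.11, 10.72, 10.01, 10.38 and 10.19 at standard gravity. Its log2 difference was -1.36 (SE 0.38, unadjusted p 0.002), with A217H the lowest array and a value of -1.08 without it. Dock4, an exchange factor for small GTPases, was 5.86 to 6.29 against 6.75 to 7.46, a log2 difference of -0.89 (SE 0.20, unadjusted p 0.00025). The adhesion receptor gene Adgrg6 was 3.96 to 4.52 against 4.84 to 6.05, a difference of -1.24 (SE 0.33), and its second probe set also did not overlap. Adgrg2 was 6.46 to 6.99 against 7.41 to 8.96, a difference of -1.27 (SE 0.41). The other 8 were Rras2, Zfand4, C1galt1, Fam43a, Met, Diaph1, Pgm3 and Coro2b, from -0.38 to -1.21. The second probe set of Rras2 also did not overlap, at -0.78. Other probe sets overlapped for C1galt1 (-0.33 and -0.21), Zfand4 (-0.18), Diaph1 (0.02) and Pgm3 (0.05). Of those that overlapped, all were dim but the C1galt1 probe set at -0.33. Of the 24 genes, C10h17orf100, Lrrc4b, Lzts3, Met and Trip11 were, like Spp1, dim, with adipose means below the array medians, and the other 2 probe sets of Lrrc4b gave 0.08 and -0.009.

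Part of the lipid synthesis genes fell in liver and mammary gland of the lactating rats. In liver, 0.312% of all probe sets fell and 0.0934% rose in hypergravity. Of the 22 fatty acid synthesis genes, 8 fell and 0 rose in liver, with a median of -0.90. Among them were Fasn with a log2 difference of -2.70 (SE 0.35, limma adjusted p 0.0013), Scd with -3.21 (SE 0.56), Elovl6 with -2.55 (SE 0.45) and Acly with -0.88 (SE 0.15). In mammary gland 12 fell, including Acaca by 2.81 (log2) (adjusted p 4.9e-05), Scd by 4.99 and Fasn by 1.15, and 2 rose, Taldo1 and Acsl3. Over all probe sets, 4.94% fell and 4.49% rose in mammary gland. Cholesterol synthesis had 10 genes lower and 0 higher in each of the other tissues, with medians of -1.02 in liver and -1.11 in mammary gland. With 1 array left out, the liver count ran from 1 (without L219S) to 13 and the mammary count from 7 to 12. The liver count of fatty acid synthesis genes ran from 4 (without L219S) to 10.

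**Figure D4:**
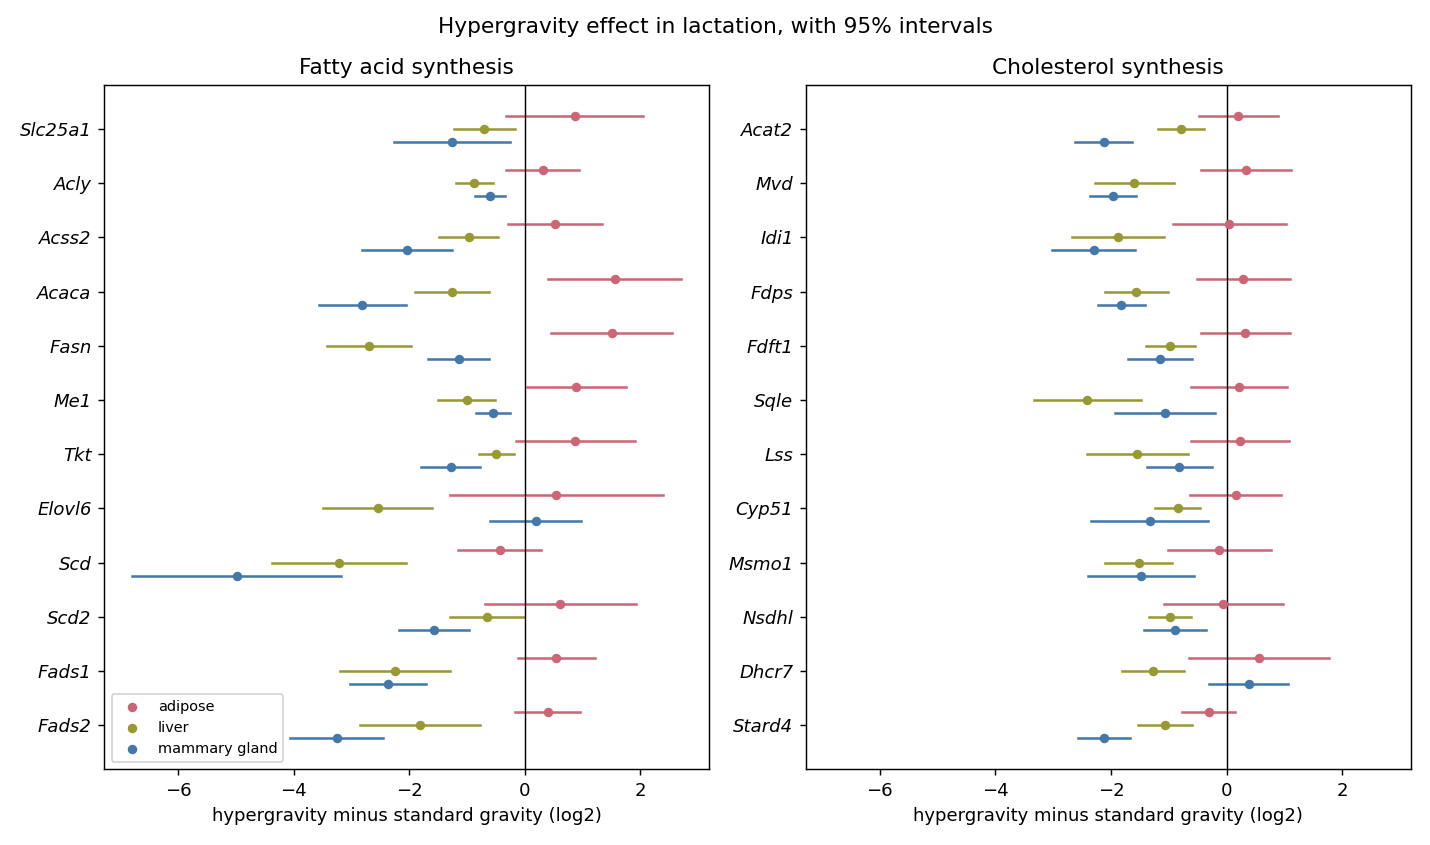
Hypergravity minus standard gravity (log2) with 95% intervals for 12 fatty acid synthesis genes (left) and 12 cholesterol synthesis genes (right) in lactating adipose tissue (red), liver (olive) and mammary gland (blue). For Fasn the adipose difference is 1.50, the liver difference -2.70 and the mammary difference -1.15. The Scd differences lie below 0 in all 3 tissues, but that in adipose tissue, -0.44 (SE 0.34), is not called.

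The difference between tissues was tested directly, as the adipose effect minus the liver effect. Limma called 17 of 31042 probe sets, all 17 with the higher value in adipose tissue (0.0548%), and 1952 had an unadjusted p under 0.05. Of the fatty acid synthesis genes, Fasn and Me1 passed. Fasn was 11.61 ± 0.23 (SD, n = 4) in hypergravity adipose tissue against 10.11 ± 0.81 (SD, n = 5), and 7.87 ± 1.07 in hypergravity liver against 10.57 ± 0.42 (SD, n = 5 each). The hypergravity livers, at 6.71 to 9.21, lay below the standard gravity livers, at 10.06 to 11.23, in the opposite order to adipose tissue. The difference of effects was 4.20 (SE 0.56, 95% interval 3.04 to 5.36, adjusted p 0.0023), and the second Fasn probe set gave 5.76. For Me1 it was 1.89 (SE 0.32, adjusted p 0.0084), made of 0.89 in adipose tissue and -1.0 in liver. Taken alone, the liver effect had an adjusted p of 0.0013 for Fasn and 0.069 for Me1, and the adipose effect one of 1 for both.

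Most of the probe sets called against liver were dim in adipose tissue: in 12 of the 17, the adipose mean was below the lowest adipose array median. Lifr, the receptor of leukaemia inhibitory factor, was 3.97 in both adipose groups and fell by 2.94 in liver, which gave a difference of 2.95 (SE 0.44, adjusted p 0.003). Fer1l5 and Otub2 were of the same kind, with adipose means below the array medians, differences of 2.29 and 1.68 and adipose effects of 0.15 and -0.03. The 17 probe sets named 9 genes, the others being Dio1, Slc6a9, Rasd2 and Paqr9.

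With the rat as a replicate block, L210H, the only array of its rat in the fit, adds nothing to the difference. The pairing of tissues within rats and the loss of this array were thus not separated. In this fit limma called 34 probe sets between adipose tissue and liver, 31 higher and 3 lower in adipose tissue, beside 33 without L210H and no block. The fatty acid synthesis genes among them were then 5, namely Fasn (4.54, SE 0.47, adjusted p 0.00021), Me1 (2.01), Acaca (2.86), Fads1 (3.13) and Acly (1.28). The blocked fit also called the cholesterol genes Fdps, Fdft1 and Sqle, and the regulator Mid1ip1. Without the block, leaving out single arrays gave 11 to 33 probe sets, with 33 without L210H, 31 without A203H, and 11 without either L203H or A214S. Leaving out A217H gave 17, with 15 higher and 2 lower. Fasn passed in each of the 24 fits run for this difference, with values of 3.91 to 4.54. Me1 passed in all of them but the fit that kept A210H and M210H under their labels, where its difference was 2.17 with an adjusted p of 0.14.

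Against mammary gland the differences were more numerous. Limma called 888 probe sets with the higher effect in adipose tissue (2.86%) and 1028 with the lower (3.31%). Of the 22 fatty acid synthesis genes, 12 had the higher effect in adipose tissue and 1, Acsl3, the lower, with -1.86 (SE 0.51). The largest of the 12 were Scd, at 4.55 (SE 0.82, adjusted p 0.00079), Acaca, at 4.37 (SE 0.64, adjusted p 6.5e-05), Fads2, at 3.65 (SE 0.72) and Fads1, at 2.91 (SE 0.70). Fads2 was dim in adipose tissue, with a mean of 3.38 below the array medians. Its effect was 0.395 there and -3.26 in mammary gland. Scd fell by 4.99 on the log2 scale in mammary gland. In adipose tissue it differed by -0.44 (SE 0.34), below 0 but not called. Fasn differed by 2.65 (SE 0.58, adjusted p 0.005), Me1 by 1.44 (SE 0.33) and Acly by 0.91 (SE 0.25).

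The same test called 8 of 18 cholesterol genes, all 8 with the higher effect in adipose tissue, beside 2.86% of all probe sets. Among the 8 were Acat2 at 2.33 (SE 0.30, adjusted p 1.4e-05) and Idi1 at 2.35 (SE 0.59). Among regulators it called Srebf1 (3.05, SE 0.79), Insig1 (1.82, SE 0.24) and Mlx (1.20, SE 0.20). Slc2a4 (1.96) and Slc2a1 (1.68) also had the higher effect in adipose tissue. Slc2a4 was dim in the mammary gland, at 4.13 to 5.98, while Slc2a1, which carries glucose for lactose synthesis, was 11.34 to 12 in hypergravity and 11.95 to 12.52 at standard gravity there. The test called 3.31% of all probe sets with the lower effect in adipose tissue. Of the 33 measured genes of fatty acid oxidation, 8 were called with the lower effect in adipose tissue and 0 with the higher. With the replicate block these were 10 and 1, Ehhadh (2.27). In adipose tissue 23 of the 33 were above 0, none with an unadjusted p under 0.05, and the median was 0.07, or 0.23 without A217H, beside 0.42 in mammary gland. Pdk4, a brake on glucose oxidation, rose by 4.86 in mammary gland and differed by -0.53 (SE 0.84) in adipose tissue, and Cpt1a, which brings fatty acids into mitochondria, rose by 3.12 and differed by -0.23 (SE 0.31). The differences of effect were -5.39 for Pdk4 and -3.35 for Cpt1a.

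The widest differences against mammary gland were in genes of other pathways. Atp2b2, a calcium pump of milk-secreting cells, had a difference of 5.48, Pcdh17 of 4.0 and Cenpu, a centromere gene, of 3.89. At the other end Card14 had -7.28, Wfdc18 and Gpr15lg -6.07 each and Dmkn -5.59. In adipose tissue itself these 7 genes had effects from -1.31 for Wfdc18 to 0.80 for Pcdh17, none called. Cell cycle genes had 31 of 34 lower in mammary gland, beside 4.94% of all probe sets, with a median of -2.56. Their median was -0.12 in adipose tissue. The gland of M212H carried skeletal muscle markers, with a mean of 6.75 over 29 genes. Without A217H and M212H the test called 2047 probe sets, with 10 fatty acid and 8 cholesterol synthesis genes higher in adipose tissue, and Acly, at 0.86 (0.79 without A217H alone), did not pass.

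**Figure D5:**
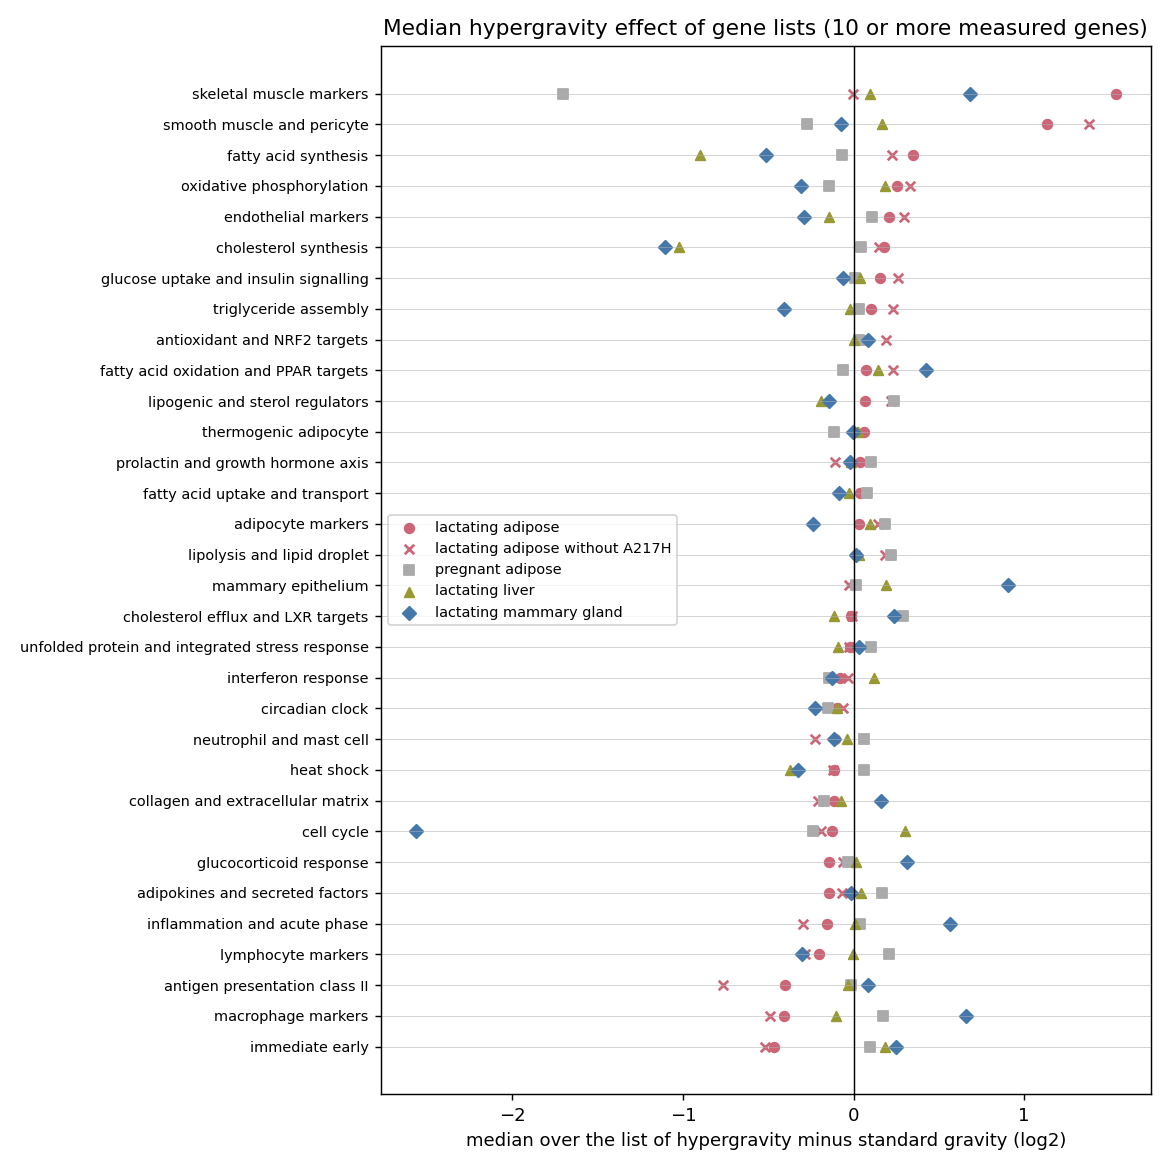
Median log2 difference, hypergravity minus standard gravity, of each gene list with 10 or more measured genes, hepatocyte genes left out, in lactating adipose tissue with (circles) and without A217H (crosses), pregnant adipose tissue (squares), lactating liver (triangles) and mammary gland (diamonds). Fatty acid synthesis lies at 0.35 in lactating adipose tissue, -0.07 in pregnant adipose tissue, -0.90 in liver and -0.51 in mammary gland, and skeletal muscle markers lie at 1.54 with A217H and at -0.002 without it.

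In pregnant adipose tissue the same genes did not show the same order. Slc2a4 was 7.02 to 8.53 in pregnant rats in hypergravity and 7.52 to 10.26 at standard gravity, a log2 difference of -1.23 (SE 0.47, unadjusted p 0.017). A48S, a pregnant standard gravity array, carried skeletal muscle markers with a mean of 11.73, and muscle also expresses Slc2a4. The pregnant difference was -1.01 without A48S. Me1 differed by -1.33 (SE 0.39), Fasn by -0.51 (SE 0.47) and Acaca by -0.20 (SE 0.52), and by -1.27, -0.87 and -0.54 without A48S. The median of the fatty acid synthesis list was -0.07 in pregnancy, and -0.23 without A48S.

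The test of the difference between the stages called 0 of 31042 probe sets (0%), with 1055 at an unadjusted p under 0.05 and a smallest adjusted p of 0.15. That smallest value was Dock4, with -0.89 in lactation and 0.85 in pregnancy, a stage difference of -1.74 (SE 0.27). Its 4 groups had means of 6.14 and 7.03 in lactation and 7.36 and 6.51 in pregnancy, in hypergravity and at standard gravity. Slc2a4 had a stage difference of 3.05 (SE 0.68), Me1 of 2.22 (SE 0.56), Fasn of 2.01 (SE 0.68) and Adgrg2 of -2.56 (SE 0.57), each with a limma adjusted p of 1. Without A217H and A48S the stage difference was 2.85 for Slc2a4 and 2.40 for Fasn, again with an adjusted p of 1.

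Mitochondrial genes of oxidative phosphorylation lay on one side without any single one standing out. All 31 measured genes were above 0, none had an unadjusted p under 0.05, and the median was 0.26, with Cyc1 the highest at 0.48 (SE 0.41). The list mean ran from 9.70 to 10.27 in hypergravity and from 9.32 to 10.07 at standard gravity, so the groups overlapped. The median was 0.17 without A206H. In liver 27 of the 31 were above 0, with a median of 0.19 and none called, and the difference of effects between adipose tissue and liver had a median of 0.06 and no call. In mammary gland 5 of the 31 fell, beside 4.94% of all probe sets, with a median of -0.31. A called difference against adipose tissue was found for 4, all with the higher effect in adipose tissue, beside 2.86% of all probe sets.

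Of 25 macrophage markers 22 were below 0, with a median of -0.41. An unadjusted p under 0.05 was found for 2 of the 25, beside 2.28% of all probe sets. Spp1, described above, was 1 of these 2 and lay above 0, at 0.91 (SE 0.24). The list mean ran from 7.74 on A206H to 8.85 on A217H in hypergravity and from 8.30 to 9.11 at standard gravity. The median was -0.20 without A206H and -0.21 without A219S. Cathepsin S (Ctss), a protease of antigen-presenting cells, was 10.87, 9.80, 10.02 and 11.10 against 10.90 to 11.33, a log2 difference of -0.63 (SE 0.28). Class II antigen presentation genes were below 0 in 11 of 11, with a median of -0.40, and -0.17 without A206H or -0.76 without A217H. In mammary gland the macrophage list had 9 genes higher and 0 lower in hypergravity, beside 4.49% and 4.94% of all probe sets. A called difference against adipose tissue was found for 7 of its genes, all with the lower effect in adipose tissue, beside 3.31% of all probe sets. Lymphocyte markers had a median of -0.20 (14 of 18 below 0) and interferon response genes of -0.08 (18 of 27 below 0).

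Immediate early genes, which cells switch on within minutes of a stimulus, were below 0 for 21 of 24, with a median of -0.47 and a range of -0.34 to -0.64 with 1 array left out. Fosb was 7.83, 6.46, 5.10 and 7.13 in hypergravity and 6.70, 9.30, 9.47, 6.61 and 10.41 at standard gravity, a log2 difference of -1.87 (SE 0.90). Fos differed by -1.13 (SE 0.60), Dusp1, a phosphatase that ends MAP kinase signals, by -0.58 (SE 0.22) and Klf4 by -0.71 (SE 0.30). A219S was the highest standard gravity array in all 4, and A212H the lowest hypergravity array in Fosb, Fos and Dusp1.

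Heat shock genes had a median of -0.11 over 19 measured, with 4 at an unadjusted p under 0.05, all 4 below 0. The share under 0.05 over all probe sets was 2.28%. Unfolded protein response genes had a median of -0.02 over 29 and antioxidant genes of 0.08 over 23. Hspa1a, the inducible chaperone HSP70, was 4.98, 7.44, 5.39 and 5.64 in hypergravity and 8.67, 8.45, 7.33, 6.41 and 7.30 at standard gravity. Only A206H in hypergravity exceeded the lower standard gravity arrays, and the log2 difference was -1.77 (SE 0.53, unadjusted p 0.0036). The heat shock genes Dnaja1 and Chordc1 differed by -0.67 (SE 0.25) and -0.54 (SE 0.20), and Hsph1 by -0.45 (SE 0.17). Metallothionein Mt1, which responds to zinc and glucocorticoid, went the other way, at 8.01, 9.15, 10.39 and 9.02 against 7.86, 8.51, 7.19, 6.21 and 8.62, a log2 difference of 1.47 (SE 0.57). The glucocorticoid response list as a whole had 7 genes above 0 and 18 below, with a median of -0.14.

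Among hormone signalling genes, Igfbp3, the main carrier of insulin-like growth factor, was 10.10, 9.40, 10.41 and 10.57 in hypergravity and 9.76, 9.28, 9.09, 9.38 and 7.58 at standard gravity. Its log2 difference was 1.10 (SE 0.37, unadjusted p 0.0079), with A206H within the standard gravity range. Stat5a, which carries prolactin and growth hormone signals, differed by 0.46 (SE 0.20), with A217H, at 7.87, within the standard gravity range of 7.63 to 7.98 and the other 3 arrays at 8.42 to 8.48. The prolactin receptor (Prlr) differed by -0.50 (SE 0.70) and the growth hormone receptor (Ghr) by -0.21 (SE 0.36). The 20 genes of this list were split 10 above and 10 below 0, with a median of 0.04.

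Matrix genes were below 0 for 30 of 38, with a median of -0.12. An unadjusted p under 0.05 was found for 4 of the 38, beside 2.28% of all probe sets. The median was -0.03, with 23 of 38 below 0, without A219S, which had the highest matrix mean at standard gravity, and -0.21 without A217H. Nid1 of the basement membrane (-0.68) and the collagen gene Col5a3 (-0.76) did not overlap between groups, with hypergravity lower. The same held for 0.622% of all probe sets. Endothelial markers were above 0 for 14 of 16, with a median of 0.21. Clock genes had a median of -0.10 over 18 genes, with Dbp at 0.60 (SE 0.42) and Per2 at -0.46 (SE 0.34), and thermogenic genes of 0.06 over 15, with Ucp1 at -0.83 (SE 0.89).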

How the data were processed

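Each array gives 1 value per probe set and tissue sample. Per the submitters' processing notes, arrays were summarised with RMA (version not given in the sources used here), and the deposited values are on a log2 scale, as their range shows. Array number, not read depth, limits precision, and 28 lactating arrays were used.

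Of 31042 probe sets, 20826 had 1 gene symbol in the platform annotation, 436 several and 9780 none. A gene was read from its brightest single-symbol probe set over the adipose arrays. Group means were fitted to 19 adipose arrays, or to 28 lactating arrays of 3 tissues for differences between tissues, using lmFit and eBayes (limma 3.58.1, R 4.3.3), and p-values were adjusted by Benjamini-Hochberg over all probe sets with a threshold of 0.05. Lactating liver and mammary effects were each tested in a fit of that tissue, pregnant arrays included. Every test was two-sided. The procedure was run on simulated data with noise drawn independently for each probe set and array. That run does not show how the test behaves with arrays such as A217H and A48S, which carry muscle markers. Within a tissue, arrays are of separate rats by their codes, and p-values measure the spread between these arrays. In the fit of 28 lactating arrays the tissues share rats, and arrays of the same rat were treated as independent unless the rat was a block.

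The rat code pairs tissues because a code marks the same rat. Deviations from group means correlated between adipose tissue and liver of a rat at -0.03 to 0.29 (over 0.1 in 5 of 9 rats) and with mammary gland at 0.03 to 0.33 (6 of 9).

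The members, the 36 gene lists and the arrays left out were chosen with earlier results of these data known. A210H and M210H were left out because their markers went against their labels. Since fewer than 3 genes were called, the named genes are the 12 per direction of smallest p whose groups did not overlap, leaving out muscle, milk protein, mammary epithelium and hepatocyte genes, given as values. For differences between tissues they are the 5 per direction with the largest difference among called genes. From each list up to 4 called genes per direction, or 2 of smallest p, were taken, and a fixed set of lipid genes was always given. Other genes named in the text were chosen after their values were seen. Alternatives were leaving out each array, other scaling, filters, probe set rules and fits, A210H and M210H kept, and the rat code as a block. Promoters were taken from RefSeq on GRCr8.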

Additional observations from a re-analysis of the deposited data

Results flagged for a closer look

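Outlying arrays were looked for in 77 lists and genes in each group, and 10 of 154 sets of values had one; chance flags about 1 set in 20. In hypergravity A217H lay apart in adipocyte markers at 10.08 (nearest array 10.63), skeletal muscle markers at 9.96 (nearest 4.22) and erythrocyte genes at 7.71 (nearest 7.0). A212H lay apart in C1galt1 at 7.62 (nearest 8.17). At standard gravity A219S lay apart in matrix genes at 9.67 (nearest 9.10), interferon response genes at 6.95 (nearest 6.26), erythrocyte genes at 8.61 (nearest 7.52) and Insig1 at 12.16 (nearest 12.38). A216S lay apart in Srebf1 at 6.07 (nearest 6.62) and A201S in Pck1 at 11.42 (nearest 10.89).

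The hypergravity effect differed between lactating adipose tissue and liver, by limma's test of the difference, for Fasn (4.20), Lifr (2.95), Fer1l5 (2.29), Me1 (1.89) and Otub2 (1.68), each higher in adipose tissue. Between adipose tissue and mammary gland it was higher in adipose tissue for Atp2b2 (5.48), Scd (4.55), Acaca (4.37), Pcdh17 (4.0), Cenpu (3.89), Srebf1 (3.05), Fasn (2.65), Slc2a4 (1.96), Insig1 (1.82), Me1 (1.44) and Acly (0.91). It was lower in adipose tissue for Card14 (-7.28), Wfdc18 (-6.07), Gpr15lg (-6.07), Dmkn (-5.59), Pdk4 (-5.39) and Cpt1a (-3.35).

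A210H, labelled lactating adipose tissue in hypergravity and left out, had a milk protein mean of 12.39, against at most 4.10 on the other lactating adipose arrays.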

How the results depend on the processing

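Over the alternatives run, 249 of 274 values that answer a comparison stayed close to the reported one (counts of calls within 1.5 times, medians within 1 SD of the list mean between arrays), and 25 counts did not. The lactating adipose effect had 0 calls with any 1 array left out, with 508 to 876 probe sets at an unadjusted p under 0.05, and 6 calls (5 higher, 1 lower) when fitted with the liver and mammary arrays, Slc2a4 among them. That fit pools the spread over the tissues. It was chosen after seeing the data, as were those without A217H and A48S or M212H. With the rat code as replicate block the adipose minus liver difference had 34 calls, 5 of them fatty acid synthesis genes. L210H adds nothing to that fit, and leaving it out without the block gave 33 calls. Leaving out 1 array gave 0 to 1 calls in pregnant adipose tissue (1 without 57S), 11 to 33 for adipose minus liver with 2 to 4 fatty acid synthesis genes, and 34 to 244 in liver, with 4 to 10 fatty acid and 1 to 13 cholesterol synthesis genes lower. Liver had 34 calls without L219S and 244 without L210H. Leaving out 1 array gave 2119 to 2591 calls in mammary gland and 1547 to 1973 for adipose minus mammary gland. The median of the adipose fatty acid synthesis list ran from 0.15 to 0.46 and that of cholesterol synthesis from 0.02 to 0.27. The cause of these changes was not tested. Dim probe sets near or below the array medians of 4.44 to 4.56 limit what can be read. Examples are Lep, Spp1, Lifr, Fer1l5, Otub2, Fads2, Met, C10h17orf100, Trip11, Lzts3 and Lrrc4b.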
